A study of Mus musculus with 24 samples.

Results

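The 9 genes described here, Shh, Ptch1, Gli1, Gli2, Gli3, Smo, Hhip, Boc and Cdon, carry the core of the Hedgehog signaling pathway and were taken by name from the deposited table of 22889 gene entries. All 9 were found in it and all 9 passed the filter on low values, so that each was tested in every comparison. Levels are in RPKM, read counts scaled to the length of the gene and to the mapped reads of the sample, which the authors computed and which allow a comparison between genes of different length.

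Shh is the secreted ligand of the pathway in the ventral neural tube, where it is made by the notochord and the floor plate and directs progenitors toward motor neuron fates. In its absence the receptor Ptch1 holds the transmembrane protein Smo inactive. Ligand binding, or a direct agonist such as SAG, frees Smo to act through the transcription factors Gli1, Gli2 and Gli3. Boc and Cdon are coreceptors that bind the ligand together with Ptch1, and Hhip is a membrane protein that sequesters it. Ptch1, Gli1 and Hhip are themselves raised by the pathway and are widely used as its readouts.

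The samples were fractions sorted by FACS from mouse embryonic stem cell cultures, with 24 samples in 4 groups of 6. Oculomotor cultures came from an Islet1-GFP line that also carried Phox2a under a nestin enhancer (Islet1-GFP/NesEPhox2a), which drives the transgene in neural progenitors, and were patterned for 5 days with 250 nM SAG and 100 ng/ml FGF8. Spinal cultures came from an Hb9-GFP line patterned for 5 days with 500 nM SAG and 100 nM retinoic acid. Each culture gave a GFP-positive and a GFP-negative fraction. Every group was therefore exposed to SAG, no group lacked a Smo agonist, and the cell line, the reporter, the SAG dose and the second morphogen changed together between the cultures, so that their parts cannot be told apart. The labels do not say that replicates were separate cultures, and p-values measure the spread between these samples only.

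Depth, as estimated from how the RPKM of low genes step, ran from 752529 to 7675428 mapped reads per sample and was 4822576 or more in the 8 samples of replicates 5 and 6 against 4642207 or less in the others. The reporters' cells carried the labelled identity in most samples: summed over 9 motor neuron markers, oculomotor GFP-positive samples held 377 to 816 RPKM and GFP-negative samples 10.5 to 43.3 RPKM, and spinal samples held 65.1 to 351 RPKM and 10.1 to 94.2 RPKM. Spinal replicate 4 stood apart, with Mnx1 (the gene of the Hb9 reporter) at 43.1 RPKM in the GFP-positive and 69.4 RPKM in the GFP-negative fraction and with the pluripotency gene Nanog at 156 and 185 RPKM. Spinal GFP-negative replicate 2 drew 68.8% of its total RPKM from 3 gene models, which made up at most 17.79% elsewhere. Results that rest on spinal replicate 4 are given with and without it.

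Ptch1 was the most abundant of the 9 genes in every group by mean level. Shh came next by mean and then Smo in every group, but this order rested on a few high Shh samples. By median Smo was above Shh in oculomotor GFP-positive (4.13 against 3.92 RPKM), spinal GFP-positive (3.86 against 1.23 RPKM) and spinal GFP-negative samples (6.18 against 5.85 RPKM). In replicates 1 to 4 the mean of Smo was the higher in all 4 groups. In oculomotor GFP-positive samples the order by mean RPKM was Ptch1 (21.6), Shh (4.27), Smo (3.90), Cdon (1.01), Hhip (0.625), Gli3 (0.487), Boc (0.326), Gli1 (0.259) and Gli2 (0.152). In spinal GFP-positive samples it was Ptch1 (25.7), Shh (7.51), Smo (4.45), Gli1 (2.74), Cdon (1.52), Boc (1.10), Gli3 (1.07), Gli2 (0.688) and Hhip (0.470). The mean of Shh and that of Gli1 each rested on 1 sample in the spinal GFP-positive group, as described with each gene. The reads behind these levels differ widely: Ptch1 had a median of 844 reads per sample, Smo 110, Shh 37, Cdon 36, Gli3 33, Hhip 21, Boc 12, and Gli1 and Gli2 8 each. The counting error of Gli1, Gli2 and Boc is accordingly large, and at these depths small differences in them were not detectable.

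**Figure D1:**
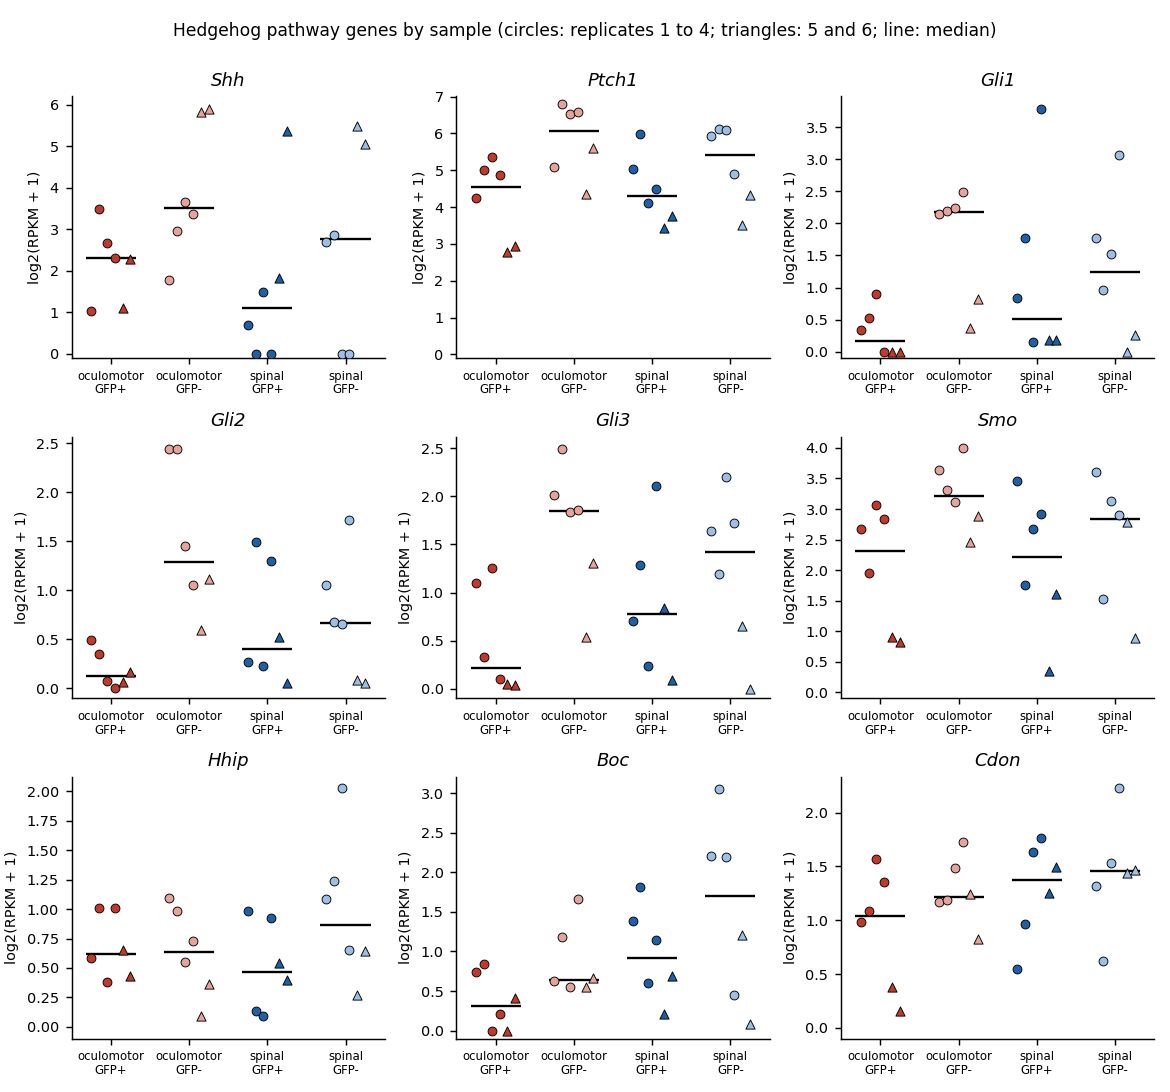
Level of each of the 9 Hedgehog genes as log2(RPKM + 1) in the 24 samples, by group on the x axis; circles are replicates 1 to 4, triangles replicates 5 and 6, and lines the group medians. For Gli2 the 6 oculomotor GFP-positive samples (0 to 0.408 RPKM) lie below the 6 oculomotor GFP-negative samples (0.513 to 4.44 RPKM), and for no other of the 9 genes and pair of groups compared is there such a separation. How common such a separation was among all genes was not counted.

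The first question is where in each culture the pathway genes were expressed, and it was asked by comparing the sorted fractions. In the oculomotor cultures 7 of the 9 genes, Ptch1, Gli1, Gli2, Gli3, Smo, Boc and Shh, had a mean that was 2.30 to 14.6 times as high in the GFP-negative as in the GFP-positive fraction. Gli2 passed the test across all genes, and Ptch1, Gli1, Gli3 and Smo passed it as well when the fractions were treated as pairs. The log2 change on the scale of RPKM + 1 was negative, that is lower in GFP-positive samples, for 8 of the 9 genes, with a median of -1.20 over the 9 genes against 0 over all 22179 genes tested.

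Gli2, the main transcriptional activator of the family, had its lowest, median and highest levels at 0, 0.0917 and 0.408 RPKM in oculomotor GFP-positive samples and at 0.513, 1.45 and 4.44 RPKM in GFP-negative samples. The groups did not overlap, and how common such a separation was among all genes was not counted. The GFP-negative mean (2.22 ± 1.75 RPKM, SD, n = 6) was 14.6 times the GFP-positive mean (0.152 ± 0.158 RPKM, SD, n = 6). These levels correspond to 0 to 13 reads against 10 to 130 reads per sample. The log2 change was -1.32 (SE 0.34, limma adjusted p = 0.0175), and Gli2 was lower in the GFP-positive fraction in 6 of 6 pairs. It was the only one of the 9 genes called without the pairing, where 2.34% of all genes were called lower and 6.15% in either direction (845 genes higher and 519 lower). With median of ratios scaling these were 881 and 834, and Ptch1 (adjusted p = 0.033), Gli2 (0.0064) and Gli3 (0.0353) were called by limma. The call held in 23 of the 24 fits that left out 1 sample, and without oculomotor GFP-negative replicate 1 the adjusted p was 0.05, just past the threshold.

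The fractions were treated as pairs because same-numbered samples of a culture deviated together from their group means in 6 of 6 pairs. With the pairs as a block, limma called Ptch1 (log2 change -1.63, SE 0.26, adjusted p = 0.00089), Gli2 (adjusted p = 0.00265), Gli1 (-1.42, SE 0.33, adjusted p = 0.00974), Gli3 (-1.20, SE 0.32, adjusted p = 0.021) and Smo (-1.19, SE 0.35, adjusted p = 0.0334). These 5 of 9 genes were all lower in the GFP-positive fraction, where the same fit called 8.21% of all genes lower and 16.4% in either direction. Without the block the adjusted p was 0.0902 for Ptch1, 0.0832 for Gli3, 0.165 for Gli1 and 0.22 for Smo.

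Ptch1, the receptor and a target of the pathway, lay at 5.89, 23.1 and 40.0 RPKM (lowest, median and highest) in oculomotor GFP-positive samples and at 19.6, 69.8 and 111 RPKM in GFP-negative samples. The ranges overlapped, with the GFP-positive minimum and the GFP-negative minimum both in replicate 5, and within each of the 6 pairs the GFP-positive sample was lower, by 0.85 to 2.68 on the log2 scale. The ratio of the means was 3.07. The Ptch1 locus (chr13:63508328-63573598, minus strand, GRCm38) is overlapped on the same strand by the gene model A930032L01Rik, and whether reads were split between them is not given in the sources used here.

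Gli1, a transcription factor whose own expression depends on the pathway, was at 0 in 3 of 6 oculomotor GFP-positive samples and reached 0.861 RPKM, against 0.291, 3.51 and 4.60 RPKM (lowest, median and highest) in GFP-negative samples. Replicates 1 to 4 of the GFP-negative fraction sat between 3.45 and 4.60 RPKM, and replicates 5 and 6 were at 0.291 and 0.774 RPKM. In those replicates the GFP-positive samples held no Gli1 read, and across all 4 samples at 0 a count of 3 reads would have given 0.085 to 0.425 RPKM. The level was lower in GFP-positive samples in 6 of 6 pairs.

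Gli3, which acts mainly as a repressor when the pathway is off, lay at 0.0302, 0.164 and 1.39 RPKM in oculomotor GFP-positive samples and at 0.454, 2.61 and 4.65 RPKM in GFP-negative samples. Smo, the transducer that SAG binds, lay at 0.773, 4.13 and 7.37 RPKM against 4.50, 8.28 and 15.0 RPKM. Both genes were lower in the GFP-positive fraction in 6 of 6 pairs, with overlapping groups. In replicate 3 the Smo difference was small, 7.37 against 7.64 RPKM.

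The proximal promoters of the called genes are shown because these genes moved together in the oculomotor cultures. They are the 250 bases before the RefSeq start in GRCm38.p6, 5′ to 3′ on the strand of the gene, for Ptch1 (chr13:63565736-63565985, minus), Gli2 (chr1:119053620-119053869, minus), Gli3 (chr13:15463473-15463722, plus) and Smo (chr6:29735247-29735496, plus). Of the 9 genes 6 had an entry in the promoter table, namely these 4, Hhip and Cdon, and Shh, Gli1 and Boc did not. Capitals mark CCACCC, the core of the GLI binding site GACCACCCA, on either strand.
Ptch1: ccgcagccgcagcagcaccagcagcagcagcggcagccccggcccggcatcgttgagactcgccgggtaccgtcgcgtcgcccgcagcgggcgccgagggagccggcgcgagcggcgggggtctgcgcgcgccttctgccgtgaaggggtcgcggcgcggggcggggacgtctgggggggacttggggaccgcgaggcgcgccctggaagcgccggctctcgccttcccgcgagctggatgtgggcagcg
Gli2: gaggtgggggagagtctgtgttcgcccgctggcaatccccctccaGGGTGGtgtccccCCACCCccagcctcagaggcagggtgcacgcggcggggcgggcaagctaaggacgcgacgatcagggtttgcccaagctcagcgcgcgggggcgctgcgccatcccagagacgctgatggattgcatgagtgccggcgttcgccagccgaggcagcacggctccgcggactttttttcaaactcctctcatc
Gli3: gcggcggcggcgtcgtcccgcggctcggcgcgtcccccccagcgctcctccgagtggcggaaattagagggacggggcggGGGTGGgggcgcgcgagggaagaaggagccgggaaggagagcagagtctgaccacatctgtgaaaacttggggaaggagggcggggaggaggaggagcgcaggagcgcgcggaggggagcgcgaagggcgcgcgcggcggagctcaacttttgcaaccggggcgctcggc
Smo: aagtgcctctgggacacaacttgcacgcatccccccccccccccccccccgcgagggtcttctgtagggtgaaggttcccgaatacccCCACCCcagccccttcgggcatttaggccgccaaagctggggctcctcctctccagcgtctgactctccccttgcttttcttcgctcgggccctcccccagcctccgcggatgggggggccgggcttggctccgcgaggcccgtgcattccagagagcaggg

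The full letters GACCACCCA were in none of the 6 windows on either strand, and in 0.225% of the 32851 promoter windows of this length. The core CCACCC, which is part of the full site, was present in Gli2 at 2 places (-205 to -200 and -192 to -187 from the start), once in Gli3 (-170 to -165), Smo (-162 to -157) and Hhip (-158 to -153), and in neither the Ptch1 nor the Cdon window. The core occurred in 28.1% of all windows. By the GENCODE annotation the Ptch1 window holds no exon and lies in an intron of the longer Ptch1 transcripts, which start further upstream, so that it covers 1 of several starts. The Cdon window (chr9:35451826-35452075, plus) and the Gli3 window also lie downstream of the first annotated base of their genes (35421128 and 15463235). The Gli3 window lies in an exon of the noncoding gene Gm6556 on the opposite strand, and reads from such overlaps cannot be assigned where strand is not used. The Gli2 and Smo windows hold no annotated feature.

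The remaining 4 genes did not pass the test in the oculomotor cultures, with or without the pairing. Shh lay at 1.06, 3.92 and 10.2 RPKM in GFP-positive samples and at 2.42, 10.5 and 58.9 RPKM in GFP-negative samples. Its log2 change of -1.77 was the largest of the 9 but had an SE of 0.98 (limma adjusted p = 0.372, and 0.121 with the block), and it was lower in the GFP-positive fraction in 5 of 6 pairs. The log2 change was -0.50 for Boc (95% interval -1.34 to 0.33) and -0.35 for Cdon (-0.97 to 0.27), each lower in 5 of 6 pairs. Hhip was level between the fractions in its mean, 0.625 ± 0.317 against 0.598 ± 0.410 RPKM (SD, n = 6), with a log2 change of 0.04 (95% interval -0.49 to 0.57) and higher GFP-positive values in 4 of 6 pairs. Hhip, like Ptch1 and Gli1 a known target of the pathway, thus showed no detectable step at a median of 21 reads per sample.

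Other cell types moved with this comparison, and their part in the result was not tested. Of 5 pluripotency markers 4 fell in oculomotor GFP-positive samples, and their summed level was 0.315 to 253 RPKM there against 670 to 9860.4 RPKM in GFP-negative samples. Of 6 proliferation markers 3 fell (21.8 to 191 against 169 to 296 RPKM summed), and of 8 progenitor markers 2 fell (129 to 494 against 189 to 481 RPKM). All 6 pan-neuronal markers and 7 of 9 motor neuron markers rose, and Chat was at 0 in every oculomotor GFP-negative sample. Of 7 endoderm markers none was called (0.353 to 3.26 against 11.4 to 41.1 RPKM summed). In bulk samples fewer cells of a type and less RNA of a gene per cell cannot be told apart.

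In the spinal cultures none of the 9 genes passed the test between the fractions, where 1.23% of all genes were called, nor with the pairs as a block, where 2.93% were. The log2 changes were all negative, from -0.07 for Gli2 to -1.12 for Shh, with a median of -0.36 over the 9 genes against 0 over all genes tested. At an unadjusted p under 0.05, limma without the block gave 0 of the 9 genes in the spinal and 5 in the oculomotor cultures. Among all 22179 genes tested it gave 2315 in the spinal and 4015 in the oculomotor cultures.

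Ptch1 was the one gene with the same direction in every spinal pair. It lay at 9.77, 19.0 and 62.1 RPKM (lowest, median and highest) in spinal GFP-positive samples and at 10.5, 44.6 and 68.3 RPKM in GFP-negative samples, and was lower in the GFP-positive fraction in 6 of 6 pairs, by 0.09 to 1.99 on the log2 scale. The log2 change was -0.68 (SE 0.56, limma adjusted p = 0.759). Replicates 5 and 6 were the lowest samples in each spinal fraction.

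Gli1 did not separate the spinal fractions, with 3 pairs lower and 3 higher. Its 2 highest levels in the whole series were both in spinal replicate 4, at 12.9 RPKM in the GFP-positive and 7.35 RPKM in the GFP-negative sample, and the other spinal samples lay at 0.116 to 2.41 and 0 to 2.41 RPKM. Gli2 ranged from 0.0379 to 1.82 RPKM in GFP-positive and from 0.0410 to 2.29 RPKM in GFP-negative samples, and Gli3 from 0.0679 to 3.31 and from 0 to 3.60 RPKM. Smo ranged from 0.271 to 10.03 and from 0.853 to 11.1 RPKM. The fractions overlapped widely for each of these genes, and 2 to 4 of 6 pairs were lower in the GFP-positive sample. Without both fractions of spinal replicate 4 none of the 9 genes was called in the spinal cultures either.

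Other cell types moved with the spinal comparison too, and their part in its results was not tested. Of 7 endoderm markers 4 fell in spinal GFP-positive samples by limma without the block, namely Sox17 (log2 change -2.40), Gata4 (-3.13), Gata6 (-3.58) and Ttr (-3.44). The summed level of the 7 was 1.69 to 9.56 RPKM in GFP-positive against 4.86 to 276 RPKM in GFP-negative samples, and Afp and Cer1 were at 0 in every GFP-positive sample. Of 9 motor neuron markers 4 rose and of 6 pan-neuronal markers 4 rose. None of the progenitor, floor plate, proliferation or pluripotency markers was called. The 5 pluripotency markers summed to 14.4 to 12389.5 RPKM (median 920) in spinal GFP-positive samples. In spinal GFP-negative samples they summed to 74.4 to 5756 RPKM (median 231).

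The ligand-binding proteins did not pass the test in the spinal cultures. Hhip lay at 0.0637, 0.387 and 0.983 RPKM in spinal GFP-positive and at 0.203, 0.844 and 3.07 RPKM in GFP-negative samples (log2 change -0.47, 95% interval -1.003 to 0.06). Boc lay at 0.155, 0.911 and 2.51 RPKM against 0.0633, 2.44 and 7.30 RPKM (-0.56, 95% interval -1.39 to 0.27), with the 3 highest Boc levels of the series in spinal GFP-negative replicates 1 to 3. Cdon lay at 0.463 to 2.39 against 0.536 to 3.69 RPKM.

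The step between the fractions was compared between the cultures as an interaction in the same fit. None of the 9 genes passed, without the block (0.320% of all genes called) or with it (2.04% called). The difference was negative, that is lower in the oculomotor cultures, for 7 of the 9 genes. It was largest for Gli1 (-1.31, SE 0.81, limma adjusted p = 0.813) and Gli2 (-1.26, SE 0.47, adjusted p = 0.463, unadjusted p = 0.0141, and adjusted p = 0.0856 with the block). Without both fractions of spinal replicate 4 it was -1.14 for Gli1 (limma adjusted p = 0.621) and -1.33 for Gli2 (limma adjusted p = 0.245). That Gli2 passed the test in 1 culture only does not show that the cultures differed in it.

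**Figure D2:**
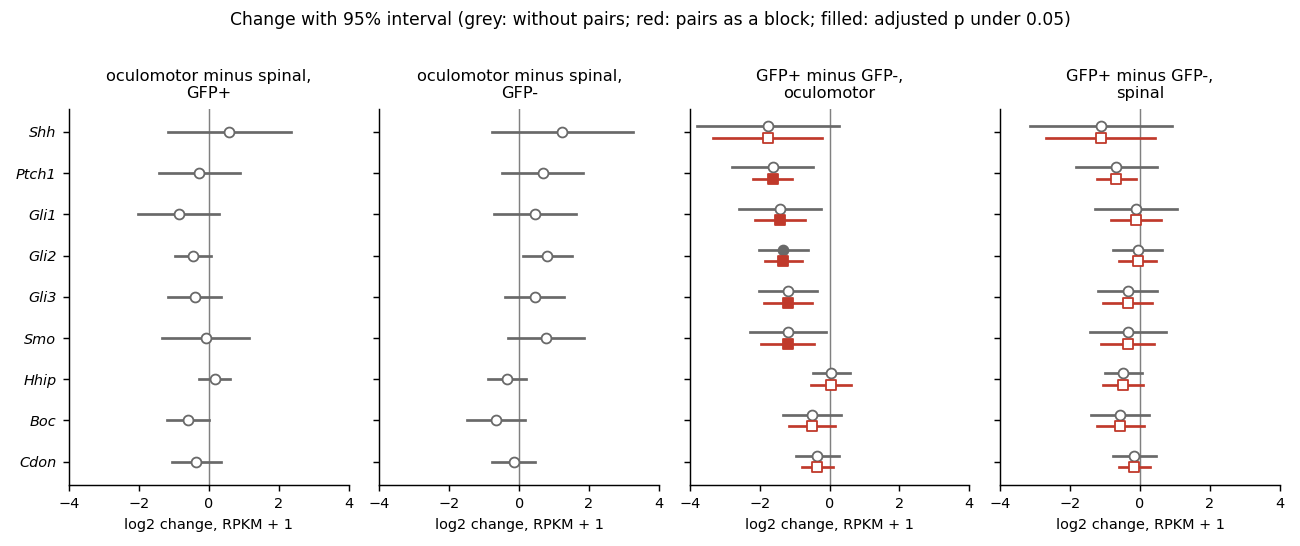
Log2 change on the scale of RPKM + 1 with its 95% interval for the 9 Hedgehog genes in 4 comparisons; grey circles are the fit without pairs, red squares the fit with the pairs as a block, and filled symbols passed an adjusted p of 0.05. Of the 9 genes, 1 is filled in grey and 5 in red, all in the comparison of the oculomotor fractions, and in the culture comparisons the interval includes 0 for all genes but Boc in GFP-positive and Gli2 in GFP-negative samples.

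The second question is whether the neurons of the cultures, which were made with 250 nM and 500 nM SAG, differed in pathway genes. Between oculomotor and spinal GFP-positive samples none of the 9 genes passed the test, in which 0.603% of 19240 genes were called. At an unadjusted p under 0.05 limma gave 1 of the 9 genes, Boc, and 1951 of the 19240 genes. The coreceptor Boc lay at 0, 0.242 and 0.793 RPKM in oculomotor and at 0.155, 0.911 and 2.51 RPKM in spinal GFP-positive samples. The groups overlapped, and the log2 change was -0.61 (95% interval -1.20 to -0.01, adjusted p = 0.487). The 5 pluripotency markers summed to 0.315 to 253 RPKM (median 57.6) in oculomotor and 14.4 to 12389.5 RPKM (median 920) in spinal GFP-positive samples. None of the 5 was called between these groups, and the part of such cells in the results was not tested.

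The targets Ptch1 and Hhip could not be distinguished between these neurons at this spread. Ptch1 averaged 21.6 ± 13.8 RPKM in oculomotor and 25.7 ± 19.4 RPKM in spinal GFP-positive samples (SD, n = 6), with a log2 change of -0.27 (95% interval -1.42 to 0.88). Hhip averaged 0.625 ± 0.317 and 0.470 ± 0.395 RPKM (0.17, 95% interval -0.28 to 0.61). Gli1 averaged 0.259 ± 0.345 and 2.74 ± 5.04 RPKM, but the spinal mean came from replicate 4, and the spinal median was 0.462 RPKM. The Gli1 log2 change was -0.86 (95% interval -2.03 to 0.30) with that replicate and -0.33 without both its fractions. Smo (-0.09), Cdon (-0.35), Gli3 (-0.40) and Gli2 (-0.45) had intervals that included 0.

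Shh had different extremes in the neurons. In oculomotor GFP-positive samples it was detected in 6 of 6 samples at 1.06 to 10.2 RPKM. In spinal GFP-positive samples it was at 0 in replicates 2 and 4, at 0.627 to 2.53 RPKM in replicates 1, 3 and 5, and at 40.1 RPKM in replicate 6. The log2 change was 0.59 (95% interval -1.18 to 2.35, limma adjusted p = 0.846), and its direction turned with the samples used, at 1.83 in replicates 1 to 4 and -1.89 in replicates 5 and 6.

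Among the GFP-negative cells, which hold the cells of each culture without the reporter, none of the 9 genes passed the test either, in which 0.960% of all genes were called. At an unadjusted p under 0.05 limma gave 2500 of all 22179 genes and 1 of the 9 genes, Gli2. Gli2 averaged 2.22 ± 1.75 RPKM in oculomotor and 0.776 ± 0.839 RPKM in spinal GFP-negative samples (SD, n = 6; log2 change 0.81, 95% interval 0.11 to 1.5, limma adjusted p = 0.346). Without both fractions of spinal replicate 4 the Gli2 change was 1.01 (limma adjusted p = 0.102). Ptch1 averaged 66.3 ± 37.6 against 42.5 ± 26.05 RPKM (0.68, 95% interval -0.48 to 1.84) and Smo 8.997 ± 3.77 against 5.67 ± 3.81 RPKM (0.76, -0.33 to 1.86). Boc was the other way, at 0.914 ± 0.683 against 2.71 ± 2.72 RPKM (-0.66, -1.49 to 0.17). The medians over the 9 genes were 0.45 between GFP-negative and -0.35 between GFP-positive samples, against -0.04 over all genes tested in each.

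Over the 4 groups, the levels of Ptch1, Shh, Gli3 and Smo followed one order by mean, highest in oculomotor GFP-negative samples, then spinal GFP-negative, spinal GFP-positive and oculomotor GFP-positive samples. Gli2 had the same order. By median the GFP-positive groups were the other way for Ptch1 (23.1 RPKM for oculomotor against 19.0 RPKM for spinal samples), Shh (3.92 against 1.23 RPKM) and Smo (4.13 against 3.86 RPKM). Boc and Cdon were instead highest in spinal GFP-negative, then spinal GFP-positive, then oculomotor GFP-negative and lowest in oculomotor GFP-positive samples. Neighbouring groups in these orders overlapped for every gene.

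Shh was higher in replicates 5 and 6 of both GFP-negative groups, and Ptch1 and Gli1 were not. Shh was at 55.7 and 58.9 RPKM in oculomotor GFP-negative replicates 5 and 6 against 2.42 to 11.7 RPKM in replicates 1 to 4, and at 43.6 and 32.3 RPKM in spinal GFP-negative replicates 5 and 6 against 0 to 6.22 RPKM. Ptch1 was at 19.6 and 47.9 RPKM in those oculomotor samples against 33.1 to 111 RPKM in replicates 1 to 4, which overlapped, and at 10.5 and 19.2 RPKM in those spinal samples against 28.7 to 68.3 RPKM, which did not. Gli1 was at or below 0.774 RPKM in all 8 samples of replicates 5 and 6. The 8 samples also had more reads, and the labels give no reason for the split. The paper names different sequencers and read lengths for the sorted samples, without saying which samples had which. The part of depth, sequencer or handling in these levels was not tested.

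Foxa2, a factor of the floor plate that Shh signaling induces there, was at 20.1 and 35.4 RPKM in oculomotor GFP-negative replicates 5 and 6 against 8.29 to 41.6 RPKM in replicates 1 to 4 and did not share the Shh difference between replicate numbers in that group. In spinal GFP-negative samples it was at 42.9 and 47.3 RPKM in replicates 5 and 6 against 1.39 to 33.5 RPKM in replicates 1 to 4, higher in the same samples as Shh. In spinal GFP-positive samples the highest Foxa2 level, 14.1 RPKM, was in replicate 6, the sample with the high Shh. The Pearson correlation of Shh with Foxa2 on the scale of log2(RPKM + 1) was 0.752 over the 24 samples. Across the same samples the genes with the pattern most like that of Shh, by Pearson correlation of log2(RPKM + 1) among 11949 genes, were Vtn (0.875), Sulf1 (0.865), Foxa1 (0.865), Pcdh8 (0.861) and Dcn (0.825). For Ptch1 they were Net1 (0.916), Pabpc4, Nasp, Rpl3 and Samhd1 (0.902). For Gli1 they were Pml (0.932), Fanci, Llgl2, Ddx11 and BC030867 (0.905). For Hhip they were Arhgef10 (0.776), P3h1, Rab43, Dusp5 and Pdk2 (0.713). These values describe points that share culture, fraction, replicate number and depth.

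**Figure D3:**
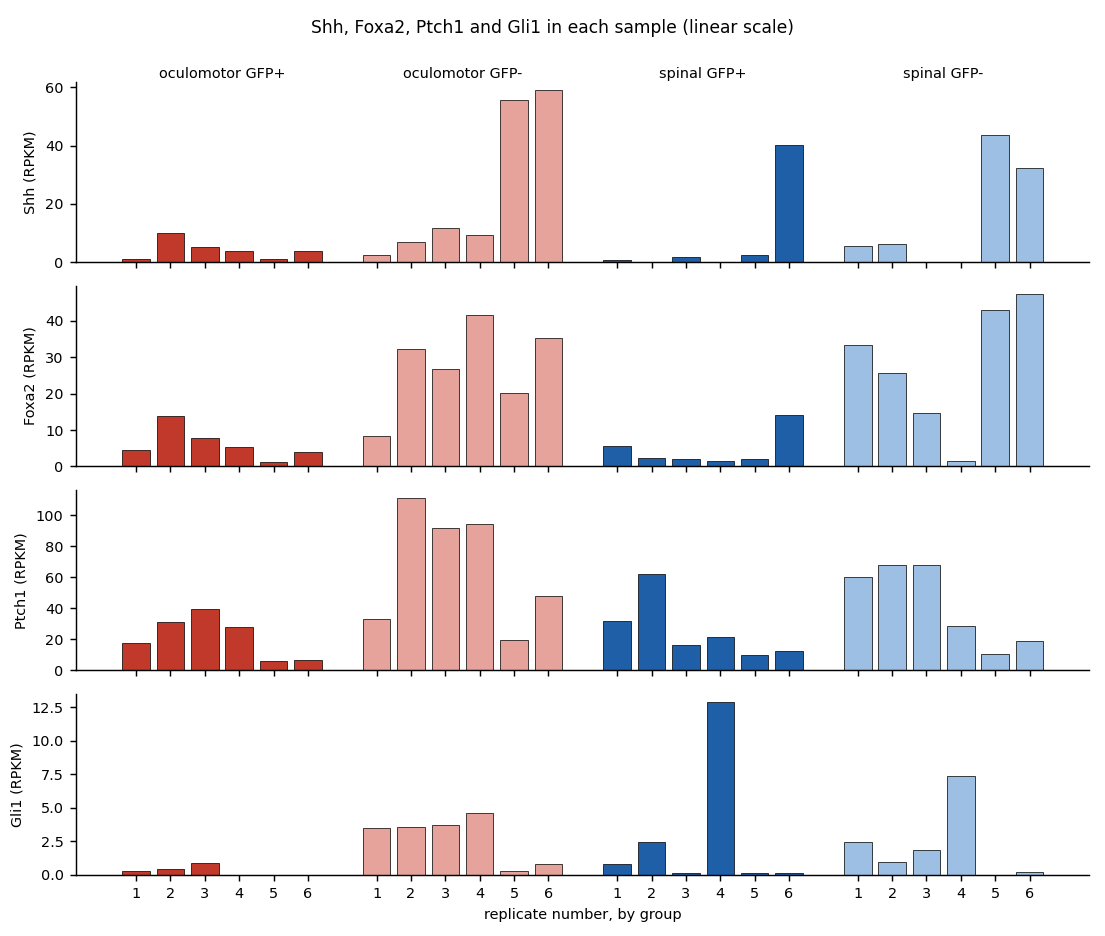
RPKM of Shh, Foxa2, Ptch1 and Gli1 in each of the 24 samples on linear axes from 0, ordered by group and replicate number. Shh is highest in replicates 5 and 6 of both GFP-negative groups and in spinal GFP-positive replicate 6 (32.3 to 58.9 RPKM), and Gli1 is highest in both fractions of spinal replicate 4 (12.9 and 7.35 RPKM).

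The other genes of the pathway were read from 7 lists with 63 genes in all. Between the oculomotor fractions 3 of 63 were higher and 2 lower in GFP-positive samples, with a median log2 change of -0.11 over the lists. These 7.94% are near the 6.15% called among all genes. With the pairs as a block 8 were higher and 11 lower, or 30.2% against 16.4% of all genes. Between the spinal fractions 0 were higher and 2 lower (3.17% against 1.23% of all genes), and with the block 1 and 3 (6.35% against 2.93%). Between GFP-positive samples 1 of 59 tested was higher in oculomotor neurons (1.69% against 0.603% of all genes), and between GFP-negative samples 1 of 63 was higher in oculomotor cultures (1.59% against 0.960%). None differed in the step between the cultures by limma without the block, and 1 was higher and 1 lower with it.

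Among genes for release of the ligand, Disp2, a relative of the transporter Disp1, rose in oculomotor GFP-positive samples (1.45 ± 0.587 against 0.0187 ± 0.0286 RPKM, SD, n = 6; log2 change 1.23, limma adjusted p = 0.0159). Scube2, which helps to release the lipid-bearing ligand, fell in spinal GFP-positive samples (0.0225 ± 0.0416 against 4.81 ± 6.64 RPKM; -1.92, adjusted p = 0.0131), and was listed at 0 in all 6 oculomotor GFP-positive samples. The 4 endoderm markers named above fell in the same spinal comparison. Scube1 and Disp1, the list's most abundant genes, averaged 4.68 ± 2.39 and 2.28 ± 1.13 RPKM in oculomotor GFP-positive samples and were called in no comparison without the block. Scube3, of the same family as Scube2, fell in oculomotor GFP-positive samples with the block (-0.83, adjusted p = 0.0275).

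Among receptors and binding proteins, Lrp2, an endocytic receptor that binds Shh in the ventral forebrain, fell in the GFP-positive fraction of both cultures. It averaged 0.432 ± 0.317 against 5.66 ± 2.27 RPKM in oculomotor cultures (log2 change -2.17, limma adjusted p = 3.05e-05) and 0.252 ± 0.206 against 1.96 ± 0.976 RPKM in spinal cultures (-1.18, adjusted p = 0.0376), again with the endoderm markers lower in spinal GFP-positive samples. It was also higher in oculomotor than in spinal GFP-negative samples (1.18, adjusted p = 0.0475). Gpc3, a glypican that competes for the ligand, fell in the oculomotor cultures with the block (27.9 ± 16.8 against 258 ± 291 RPKM; -2.54, adjusted p = 0.00115). The coreceptor Gas1 averaged 1.27 ± 0.774 against 2.99 ± 1.69 RPKM and did not pass (adjusted p = 0.0849 with the block).

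Of 18 transducers and inhibitors in the cytoplasm and cilium, 1 rose in oculomotor GFP-positive samples without the block, and 5 rose and 1 fell with it. These are 5.56% of the list against 6.15% of all genes, and 33.3% against 16.4% with the block. Prkar1a, the regulatory subunit of protein kinase A, which phosphorylates Gli proteins, rose from 35.2 ± 7.03 to 94.7 ± 41.3 RPKM (log2 change 1.32, limma adjusted p = 0.018). Gsk3b, another kinase of the Gli proteins, rose with the block in oculomotor (1.60, adjusted p = 0.000175) and spinal cultures (0.93, adjusted p = 0.0256). Arrb1, Prkaca and Ulk3 also rose with the block in the oculomotor cultures and Evc fell. Prkaca, Prkar1a and Gsk3b serve many pathways besides this one. Of 12 genes for assembly of the cilium, where Smo acts, none was called without the block and 1, Ift88, fell with it (-0.60, adjusted p = 0.0481). With the block this is 8.33% of the list, below the 16.4% of all genes. Ift27 and Kif3a, the most abundant of them, averaged 38.9 ± 9.45 and 13.5 ± 7.30 RPKM in oculomotor GFP-positive samples.

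Downstream neural tube factors did not move one way. Of the 9 ventral factors that Hedgehog signaling is known to raise, Foxa2 fell in oculomotor GFP-positive samples (6.18 ± 4.38 against 27.4 ± 11.9 RPKM; log2 change -2.06, limma adjusted p = 0.047) while Nkx6-1, a factor of motor neuron progenitors that some motor neurons retain, rose (222 ± 188 against 26.9 ± 29.3 RPKM; 3.09, adjusted p = 0.0249). Foxa2 also fell in the spinal cultures with the block (-2.20, limma adjusted p = 0.0212), again with the endoderm markers lower in spinal GFP-positive samples. Nkx6-2, a relative of Nkx6-1, was the one listed gene called between the neurons, with 26.6 ± 19.1 RPKM in the oculomotor and 2.12 ± 0.997 RPKM in the spinal GFP-positive group (2.89, limma adjusted p = 0.0114). With the block Nkx2-9 and Olig1 fell and Nkx6-2 rose in oculomotor GFP-positive samples, and the Nkx6-1 step differed between the cultures (3.07, adjusted p = 0.00309). Between the oculomotor fractions 22.2% of the ventral list was called without the block against 6.15% of all genes, and 55.6% with it against 16.4%.

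Of 7 factors that the pathway holds down, none was called without the block and Pax6 fell in the oculomotor cultures with it (log2 change -1.03, limma adjusted p = 0.0238). With the block this is 14.3% of the list against 16.4% of all genes. Irx3 and Irx5, the most abundant of this list, averaged 7.76 ± 7.51 and 9.07 ± 6.62 RPKM in spinal GFP-positive samples and 1.35 ± 1.41 and 1.08 ± 0.700 RPKM in oculomotor GFP-positive samples, without passing the test. Of the 5 proliferation targets, Mycn and Ccnd2 fell in oculomotor GFP-positive samples with the block (-1.34, adjusted p = 0.00631, and -1.80, adjusted p = 0.0138), and the Mycn step differed between the cultures (-1.74, adjusted p = 0.0465). Ccnd2 averaged 13.96 ± 8.09 against 47.9 ± 23.6 RPKM. Sfrp1, the other abundant gene of the list, averaged 23.0 ± 17.0 against 59.3 ± 46.3 RPKM and did not pass.

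**Figure D4:**
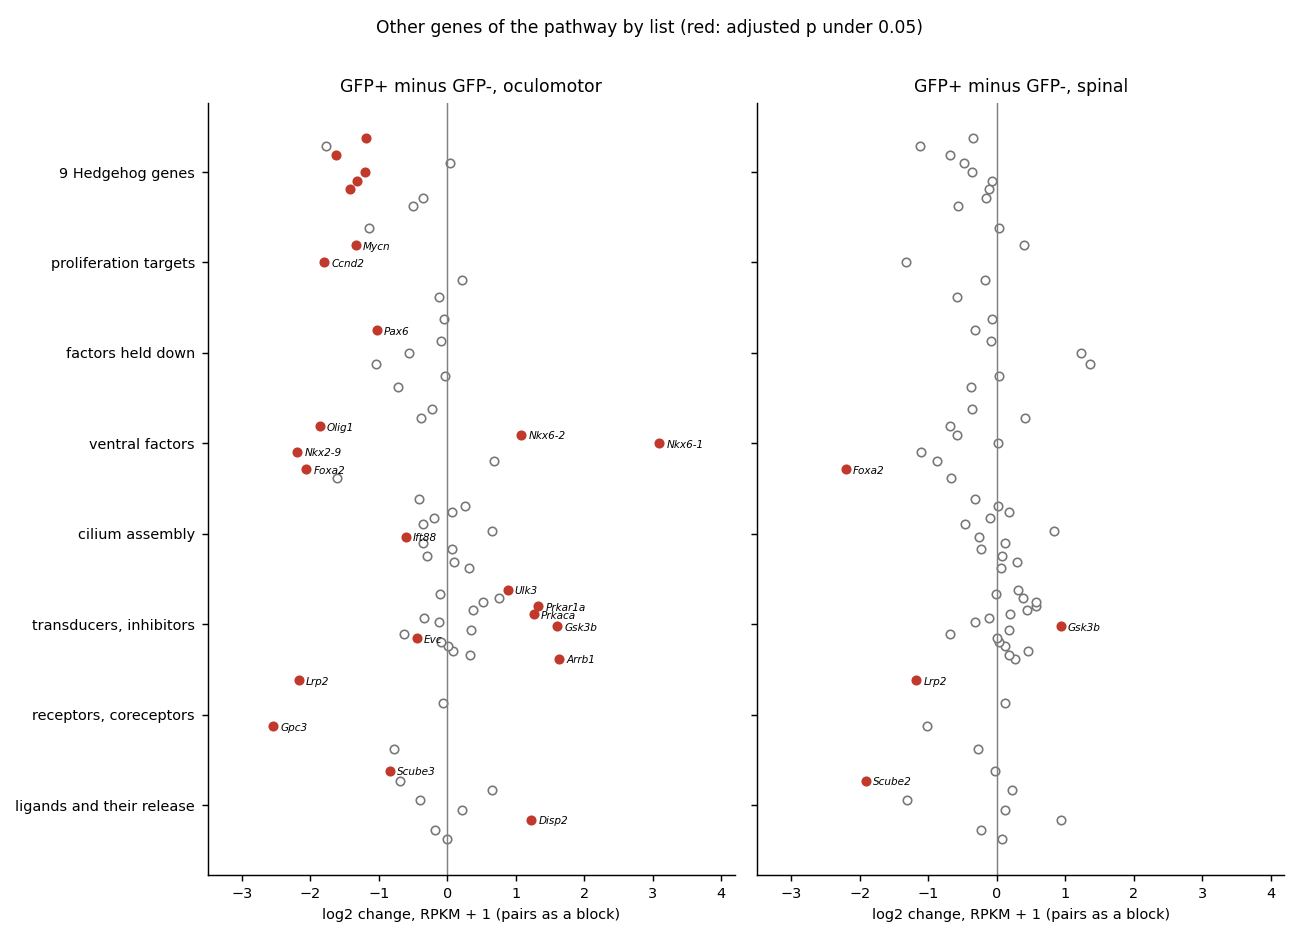
Log2 change on the scale of RPKM + 1 between GFP-positive and GFP-negative samples, with the pairs as a block, for the 9 Hedgehog genes and the 63 other pathway genes by list, in oculomotor (left) and spinal (right) cultures; each point is a gene and red points passed an adjusted p of 0.05. In the oculomotor cultures 5 of the 9 genes, 11 of the 63 lower and 8 of the 63 higher are red, and in the spinal cultures none of the 9 and 4 of the 63.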

How the data were processed

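The 24 mouse samples of 4 groups were all used. The authors prepared SMART-seq2 libraries, which carry no molecular identifiers, mapped reads with HISAT2 2.0.3 to mm10 (GRCm38) and deposited RPKM values computed with rpkmforgenes; the setting for strand and for overlapping genes is not given in the sources used here. DESeq2 1.12.4 stands in the submitters' processing notes; the deposited RPKM are not counts and were not tested as such. The 9 genes and the lists were chosen with earlier results of these data known. A receptor list gene is not reported here.

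Depth and reads per gene were recovered from the steps of the RPKM values: 96.2% to 97.9% of low values per sample (under 10 reads, 5911 single-transcript genes) lay within 2% of whole reads, and the 9 genes gave whole reads within 0.1 in 24 of 24 samples, with exon lengths from GENCODE M21 except for Ptch1, whose length (8745 bases) was found by search. Intervals for reads cover counting error only.

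Genes above 0 RPKM in at least 2 samples were compared as log2(RPKM + 1) in limma 3.58.1 (R 4.3.3; trended variance, Benjamini-Hochberg adjustment over all genes, threshold 0.05), which understates changes of genes near 1 RPKM. GFP-positive groups were compared in their 12 samples and the other comparisons in a fit of all 24. Fractions of one culture and number were pairs (correlations of deviations 0.379 to 0.728 in oculomotor and 0.421 to 0.661 in spinal cultures), and a block for them was an alternative. Of the fits, only that of the GFP-positive groups without a block was tested on simulated data. It recovered 51% of 200 genes changed by 2 on the log2 scale and 88% of 200 changed by 4. False calls numbered 6 and 12, and 0 genes were called where no gene was changed. Other pathway genes were named where called in any comparison or among the 2 most abundant of their list, and others named with the block were chosen after their values were seen. Alternatives covered the offset, the filter, scaling, weights, replicate sets, single samples left out and the samples fitted. Tables and figures were made with matplotlib 3.10.9, pandas 2.3.3 and numpy 2.4.6 under Python 3.11.15.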

Additional observations from a re-analysis of the deposited data

Results flagged for a closer look

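Of the 36 combinations of the 9 genes and 4 groups of 6 samples, 3 held a sample whose gap to its nearest neighbour was over 0.625 of the range of the group (Dixon's criterion), and chance gives about 1 in 20. Shh was at 40.1 RPKM in spinal GFP-positive replicate 6, with the next sample at 2.53 RPKM. Gli1 was at 12.9 RPKM in spinal GFP-positive replicate 4, with the next sample at 2.41 RPKM, and at 7.35 RPKM in spinal GFP-negative replicate 4, with the next also at 2.41 RPKM. Both fractions of replicate 4 also held the highest Nanog levels of the series (156 and 185 RPKM). No gene had all pairs of one culture moving one way and all pairs of the other culture the opposite way.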

How the results depend on the processing

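Over 1462 values of the 9 genes under the alternatives, 1391 kept their direction and their side of the threshold, 47 turned in sign without being called in either fit, 21 gained and 3 lost a call. The calls that moved were mostly those between the oculomotor fractions. Among all genes 6.15% were called there without the block and 16.4% with it, and the count of all genes rose with weights too, as given below. The number of the 9 genes called there was 1, and it was 2 with at least 1 RPKM in at least 6 samples, 3 with median of ratios scaling, 5 with sample weights, 0 in replicates 1 to 4 only and 0 in replicates 5 and 6 only, 2 without both fractions of spinal replicate 4, 3 in a fit of only the groups compared, 5 with the replicate block, and 5 with the block and without spinal replicate 4, an alternative chosen after seeing the data. Leaving out single samples gave 0 (without oculomotor GFP-negative replicate 1) to 3 (without replicate 5 of that group). Between GFP-negative samples a block by replicate number across the cultures, without spinal replicate 4, called 1 of the 9 genes, Gli2.

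The count of all genes called moved more. Between GFP-positive samples 116 genes became 229 with an offset of 0.1 RPKM, 260 with weights, 342 in a fit of all 24 samples, 30 and 13 in replicates 1 to 4 and 5 and 6, and 67 (without oculomotor replicate 6) to 181 (without spinal replicate 3) when single samples were left out. Between GFP-negative samples 213 became 650 with weights, 39 in replicates 1 to 4, 584 without spinal replicate 4, 76 in a fit of only those groups, and 115 (without oculomotor replicate 2) to 444 (without spinal replicate 4). Between oculomotor fractions 1364 became 3795 with weights, 476 and 884 in the replicate sets and 2388 in a fit of only those groups. Between spinal fractions 272 became 484 with weights, 1 in replicates 1 to 4, 633 without replicate 4, 4 in a fit of only those groups, and 186 (without GFP-negative replicate 1) to 634 (without GFP-positive replicate 4). For the step between the cultures 71 became 108 with median of ratios scaling, 240 with weights, 10 in replicates 1 to 4, 228 without spinal replicate 4, 270 when spinal GFP-negative replicate 2 was left out too, and 41 (without oculomotor GFP-positive replicate 2) to 234 (without spinal GFP-negative replicate 4). With the replicate block the counts were 73, 563, 3644, 649 and 453, in the order above, and with the block and without spinal replicate 4 they were 52, 1435, 3666, 1238 and 499. In the comparisons between cultures the block was the replicate number, which joined oculomotor and spinal samples of the same number. Only 4 of 6 numbers deviated together there, and this block was used as an alternative only. The causes were not tested.

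Signs turned for small or scattered changes. Between GFP-positive samples these were Shh (-0.30 with weights, -1.89 in replicates 5 and 6), Smo (0.0738 without spinal replicate 4, -0.44 to 0.18 without single samples), Cdon (0.0247 in replicates 1 to 4) and Ptch1 (-0.50 to 0.0288 without single samples). Between oculomotor fractions it was Hhip (-0.0346 with weights, -0.0928 in replicates 1 to 4, -0.0652 to 0.14 without single samples). Between spinal fractions these were Gli1 (0.0519 in replicates 5 and 6, -0.64 to 0.25 without single samples), Gli2 (0.22 in replicates 5 and 6, 0.0067 without replicate 4 with and without the block, -0.24 to 0.14 without single samples), Gli3 (0.14) and Hhip (0.0158) in replicates 5 and 6, and Smo (-0.66 to 0.0108 without single samples). In the step between the cultures these were Shh (0.27 in replicates 1 to 4, -1.21 to 0.11 without single samples), Boc (-0.85 with an offset of 0.1 RPKM, -0.21 in replicates 5 and 6, -0.0178 without the 3 spinal samples, -0.25 to 0.35 without single samples) and Cdon (0.0564 in replicates 1 to 4). Few reads limit Gli1, Gli2 and Boc, with medians of 8 to 12 per sample.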
